A study of Mus musculus with 6 samples.

Results

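The insulin-like growth factor (IGF) system was followed in primary mouse embryonic fibroblasts that lacked exon 2 of Cas, through the 2 ligands Igf1 and Igf2, the receptors Igf1r and Igf2r, and the binding proteins Igfbp2 to Igfbp7. The members were taken by symbol, without regard to their levels. All 10 had probe sets, out of 18193 genes named by a single symbol on the array, and they were read by 28 probe sets. The tested cells were homozygous for the deletion (Cas exon 2∆/∆) and were set against heterozygotes (Cas exon 2+/∆) and wild-type cells (Cas exon 2+/+). All 3 groups came from embryos of the B6 strain at 12.5 days post coitum, from intercrosses of heterozygotes, with 2 embryos per genotype, 1 array per embryo and 6 arrays in all. Each culture was grown from what remained of 1 embryo after the head and inner organs had gone to genotyping, in medium with 10% fetal calf serum, which itself carries growth factors. The labels describe no pooling of embryos and no treatment. The purpose stated for the series was to compare expression in the homozygous fibroblasts with that in both other genotypes.

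IGF1 and IGF2 are secreted peptides that stimulate growth and survival by binding the receptor tyrosine kinase encoded by Igf1r, and fibroblasts both make and respond to them. The receptor encoded by Igf2r, the cation-independent mannose 6-phosphate receptor, takes up IGF2 and carries it to lysosomes. Secreted binding proteins hold the ligands in the medium or at the matrix and limit or prolong their action, and several are cut by proteases that free the ligand. Cas (p130Cas, gene symbol Bcar1) is a docking protein of integrin adhesions that is phosphorylated by Src-family kinases.

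Values are log2(intensity + 1.78), where 1.78 is the 10th percentile of all intensities, after quantile normalisation of the arrays. For dim probe sets, the added constant pulls fold changes towards 1. For a gene with several probe sets, the one with the highest mean stands for the gene, and levels of different genes were not compared. All 10 genes passed the intensity filter, as did 27 of their 28 probe sets. The fit was limma with all 6 arrays, and the Benjamini-Hochberg adjustment ran over 22519 tested probe sets. Precision is limited by the number of arrays, 2 in each group.

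The promoters of 4 genes are printed because these genes shared the most marked pattern among the members, a lowest value in wild-type array 1 with a range over the arrays above 2 log2 units. They are RefSeq sequences of the GRCm38.p6 assembly from 250 bases before the annotated transcription start to 50 bases after it, read 5′ to 3′ on the gene's strand. All 10 members matched an entry. The windows lie at chr10:87860861-87861160 on the plus strand for Igf1, at chr1:72824230-72824529 on the plus strand for Igfbp2, at chr11:7213874-7214173 on the minus strand for Igfbp3 and at chr11:99040994-99041293 on the plus strand for Igfbp4. Each holds the promoter and the first bases of the transcript. Capitals mark matches on either strand to 3 motifs, which were matched letter by letter and may overlap one another. The first was TATAAA and the second, a variant of it, was TATATA. The last was GGGCGG, the core of a GC box.
Igf1: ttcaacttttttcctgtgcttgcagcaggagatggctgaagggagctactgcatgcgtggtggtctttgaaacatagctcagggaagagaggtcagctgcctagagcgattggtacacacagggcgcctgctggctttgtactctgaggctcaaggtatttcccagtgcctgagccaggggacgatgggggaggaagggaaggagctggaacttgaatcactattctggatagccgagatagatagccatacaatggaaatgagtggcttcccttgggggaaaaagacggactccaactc
Igfbp2: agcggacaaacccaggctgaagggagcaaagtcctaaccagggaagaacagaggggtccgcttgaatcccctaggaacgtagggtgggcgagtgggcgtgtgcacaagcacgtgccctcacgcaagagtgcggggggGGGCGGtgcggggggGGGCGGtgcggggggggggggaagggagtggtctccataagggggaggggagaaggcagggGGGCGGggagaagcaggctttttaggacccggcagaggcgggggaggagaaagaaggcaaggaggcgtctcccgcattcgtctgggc
Igfbp3: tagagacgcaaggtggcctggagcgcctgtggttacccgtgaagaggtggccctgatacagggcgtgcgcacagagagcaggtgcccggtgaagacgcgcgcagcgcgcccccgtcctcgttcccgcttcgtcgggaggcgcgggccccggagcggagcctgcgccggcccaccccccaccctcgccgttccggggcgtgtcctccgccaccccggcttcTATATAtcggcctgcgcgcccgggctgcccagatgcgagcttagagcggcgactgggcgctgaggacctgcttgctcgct
Igfbp4: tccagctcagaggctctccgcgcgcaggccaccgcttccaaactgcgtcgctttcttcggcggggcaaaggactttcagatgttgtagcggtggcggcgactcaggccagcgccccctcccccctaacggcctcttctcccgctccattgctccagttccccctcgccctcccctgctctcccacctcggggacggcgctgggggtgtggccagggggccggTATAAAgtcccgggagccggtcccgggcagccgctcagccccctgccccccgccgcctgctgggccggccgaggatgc

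The 4 windows did not share a motif. The Igf1 window held none of the 3. The first of the 2 Igfbp2 windows held GGGCGG at 3 places, which began 113, 98 and 37 bases upstream of the start. The Igfbp3 window held TATATA beginning 30 bases upstream, and the Igfbp4 window held TATAAA beginning 28 bases upstream. Over 32851 promoter windows of the same length, TATAAA was found in 13.6%, TATATA in 5.67% and GGGCGG in 35.7%. These matches describe the letters only. Among the members, Igfbp2 and Igfbp5 are neighbouring coding genes on chromosome 1. Igfbp3 neighbours Igfbp1 on chromosome 11, and Igf2 neighbours the insulin gene Ins2 on chromosome 7.

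Wild-type array 1 was at an end of the 6 arrays more often than any other array. Of the 11373 tested genes, 26.6% had their lowest value there and 24.3% their highest, where the other 5 arrays were lowest for 9.04% to 24.4% and highest for 10.8% to 19%. The sex-linked genes differed between the embryos, whose sex the labels do not give. Xist, a transcript of the inactive X chromosome, had 3.70 and 5.31 in the homozygotes, 10.27 and 10.29 in the heterozygotes, and 8.82 and 4.23 in the wild type. The Y-linked Eif2s3y had 8.76 and 8.61 in the homozygotes, 1.24 and 1.70 in the heterozygotes, and 3.61 and 8.37 in the wild type. Both homozygotes and wild-type array 2 were thus high in Eif2s3y and low in Xist, and the other 3 arrays were the reverse, with wild-type array 1 less extreme than the heterozygotes, so that between homozygotes and heterozygotes genotype and embryo sex cannot be told apart. Bcar1 had 8.08 and 8.43 in the homozygotes, 8.19 and 8.32 in the heterozygotes, and 9.37 and 8.42 in the wild type, a difference of -0.32 (SE 0.31, limma adjusted p = 1) between the homozygotes and the mean of the other genotypes. Where its probes lie relative to exon 2 is not known here, so Bcar1 does not check the genotype labels.

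None of the 10 members passed the test in any of the 4 comparisons between genotypes, and neither did any other of the 22519 probe sets tested in them, a background of 0%. In the comparison of the homozygotes with the mean of the heterozygotes and the wild type, 6 members were higher and 4 lower, where 47.4% of all tested genes were higher. The median difference of the members was 0.18, against -0.013 for all genes. At an unadjusted p under 0.05, this comparison held 0 members by the probe set that stands for the gene, against 2.19% of genes. Of the 27 member probe sets tested, 3 had one, all of Igf1, or 11.1% against 2.49% of all probe sets. The difference that was largest among the members was that of Igf1, and the most marked spread was between arrays of a genotype, in Igfbp2 to Igfbp5 and Igf1.

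**Figure D1:**
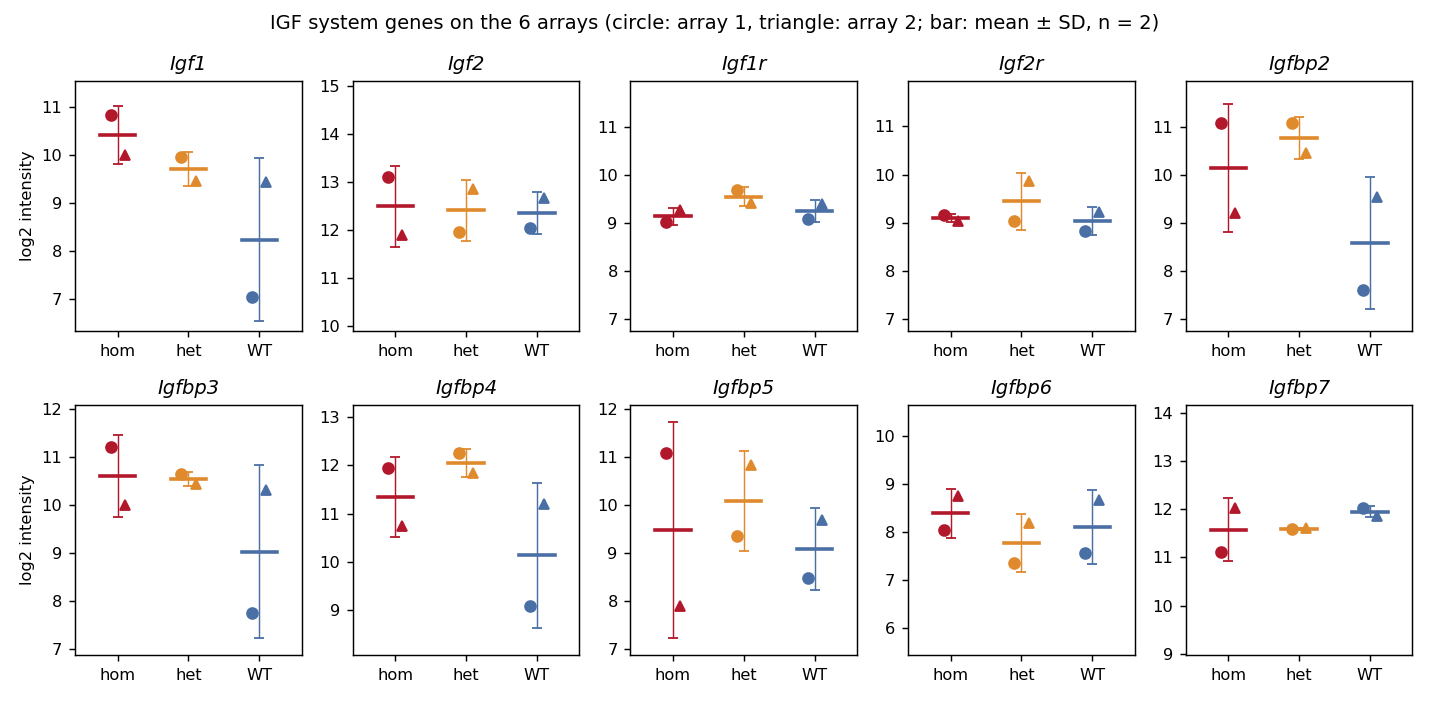
Log2 intensity (y axis, log2 units) of the 10 genes of the IGF system in homozygote (hom), heterozygote (het) and wild-type (WT) fibroblasts, with a circle for array 1, a triangle for array 2, a thick bar for the mean and whiskers for the SD (n = 2 each). The 2 Igf1 values of the homozygotes, 10.83 and 9.99, lie above the other 4, and the lowest values of Igf1, Igfbp2, Igfbp3 and Igfbp4 are those of wild-type array 1.

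Igf1 was the member whose homozygote arrays both lay above all others. It had 10.83 and 9.99 in the homozygotes, 9.97 and 9.46 in the heterozygotes, and 7.04 and 9.44 in the wild type. The groups did not overlap, but the margin between homozygote array 2 and heterozygote array 1 was small, and the low end was set by wild-type array 1. Across all tested genes, 3.16% had both homozygote arrays above the other 4. In bulk RNA of a culture, fewer cells of a type and less RNA per cell cannot be told apart. The mean level of Igf1 was 10.41 ± 0.59 in the homozygotes, 9.71 ± 0.36 in the heterozygotes and 8.24 ± 1.70 in the wild type (SD, n = 2 each).

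The homozygotes had 2.71 times the Igf1 signal of the other genotypes combined, a log2 difference of 1.44 (SE 0.66, 95% interval -0.16 to 3.03, limma adjusted p = 1). Leaving out 1 array at a time, the value was lowest without wild-type array 1, at 0.83, and highest without wild-type array 2, at 2.04. Against the wild type alone the difference was 2.17 (SE 0.76, limma unadjusted p = 0.027, adjusted p = 0.973), and it was 0.97 without wild-type array 1. Igf1 was thus the 1 member with an unadjusted p under 0.05 in that comparison, where 3.28% of genes had one. Of the 27 member probe sets, the 4 of Igf1 had one, or 14.8% against 3.8% of all probe sets. Against the heterozygotes the difference was 0.70 (SE 0.76, 95% interval -1.14 to 2.54).

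All 4 probe sets of Igf1 had both homozygote arrays above the other 4. Their differences from the mean of the other genotypes were between 1.37 and 1.51, with a smallest unadjusted p of 0.0129 and an adjusted p of 1 (limma). In another of these probe sets, the separation was wider, with 9.51 and 9.04 in the homozygotes, 8.45 and 7.79 in the heterozygotes, and 6.70 and 8.13 in the wild type. The 4 probe sets read the same RNA on the same arrays and are not independent. With a score of the sex-linked genes as a covariate, the Igf1 difference between the homozygotes and the other genotypes became -0.84 (SE 0.44), with an adjusted p of 0.978 (limma), which turned its direction. The score differed by 8.80 between the wild-type arrays, by 1.63 between the homozygotes and by 0.19 between the heterozygotes, so that 96.6% of its squared variation within genotypes came from the wild-type pair. The adjusted value therefore carries over the gap between the 2 wild-type arrays and does not separate sex from what else distinguishes wild-type array 1.

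Igf2, the growth factor expressed from the paternal allele in the embryo, had 13.09 and 11.90 in the homozygotes, 11.96 and 12.85 in the heterozygotes, and 12.05 and 12.67 in the wild type. The 3 genotypes overlapped, and the homozygotes held both the highest and the lowest value. The difference between the homozygotes and the other genotypes was 0.11 (SE 0.43, 95% interval -0.93 to 1.16). A second probe set, with a mean of 5.99 where the filter lay at 4.57, gave 0.76 (SE 0.64). It had 7.45 and 5.55 in the homozygotes, 4.75 and 6.33 in the heterozygotes, and 6.20 and 5.66 in the wild type. Igf1 and Igf2 did not order the arrays alike, since wild-type array 1 was the lowest for Igf1 and homozygote array 2 for Igf2.

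Both receptor genes ranged over about 1 log2 unit or less, by 0.67 for Igf1r and 1.04 for Igf2r. Igf1r had 9.01 and 9.26 in the homozygotes, 9.68 and 9.40 in the heterozygotes, and 9.08 and 9.40 in the wild type. Both homozygote arrays lay below both heterozygote arrays, a separation found in that direction in 12.4% of tested genes, while they overlapped with the wild type. The Igf1r difference was -0.25 (SE 0.21) against the other genotypes combined and -0.40 (SE 0.25) against the heterozygotes. The 5 Igf1r probe sets were all lower in the homozygotes than in the mean of the other genotypes, by -0.51 to -0.15, with a smallest unadjusted p of 0.155 (limma).

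Igf2r had 9.15 and 9.04 in the homozygotes, 9.03 and 9.86 in the heterozygotes, and 8.83 and 9.23 in the wild type. All groups overlapped, and heterozygote array 2 stood highest. The difference between the homozygotes and the other genotypes was -0.14 (SE 0.29), and the second probe set of the gene gave -0.38 (SE 0.24).

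**Figure D2:**
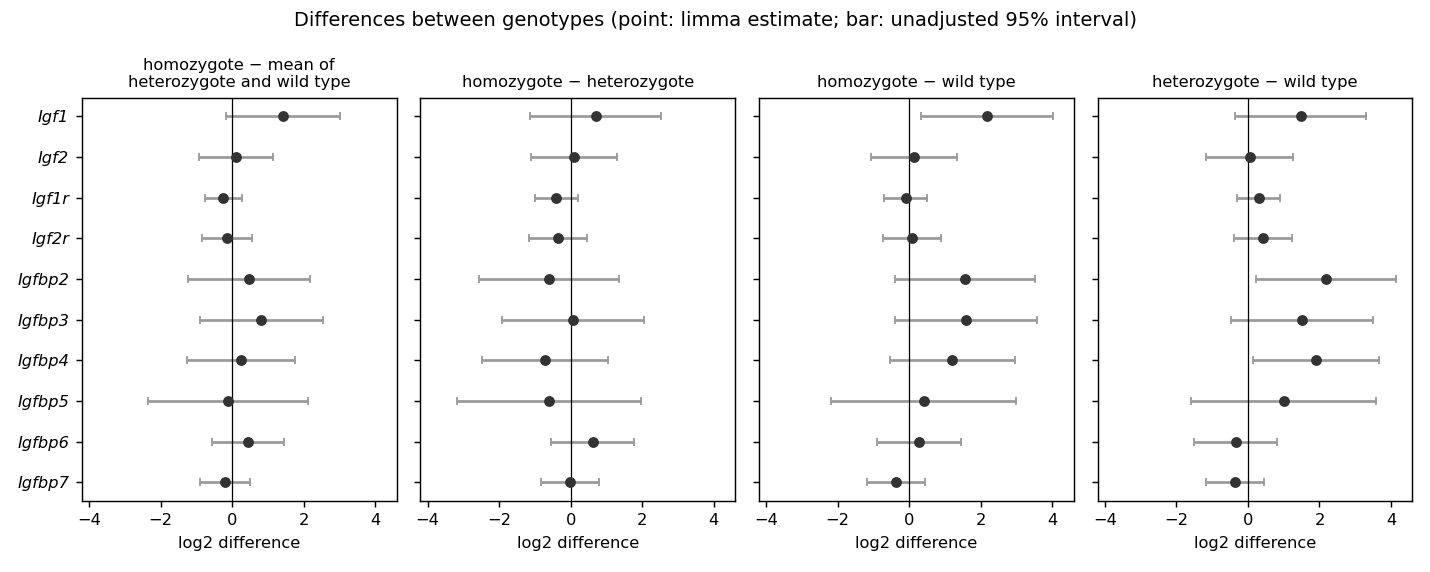
Log2 differences (x axis, log2 units) of the 10 genes in 4 comparisons between genotypes, with points for the limma estimate and bars for its unadjusted 95% interval. The interval lies above 0 for Igf1 between homozygote and wild type and for Igfbp2 and Igfbp4 between heterozygote and wild type, and none of these passed the threshold after adjustment.

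Among the binding proteins, Igfbp2, Igfbp3 and Igfbp4 shared 1 pattern, with both heterozygotes above both wild-type arrays and wild-type array 1 lowest. Igfbp2, a binding protein of the fetal and adult circulation, had 11.09 and 9.20 in the homozygotes, 11.07 and 10.45 in the heterozygotes, and 7.62 and 9.55 in the wild type. The homozygotes overlapped with both other genotypes. The log2 difference between heterozygotes and wild type was 2.18 (SE 0.81, limma unadjusted p = 0.034, adjusted p = 0.838), or 4.53-fold, and it was 1.21 without wild-type array 1. Between homozygotes and the other genotypes it was 0.47 (SE 0.70).

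Igfbp3, the main carrier of IGFs in serum, had 11.20 and 10.00 in the homozygotes, 10.65 and 10.43 in the heterozygotes, and 7.76 and 10.30 in the wild type. Wild-type array 2 lay below both heterozygotes and between the homozygotes, and wild-type array 1 lay below all. The difference between homozygotes and the other genotypes was 0.82 (SE 0.71), with 0.86 (SE 0.59) from a second probe set. It was 0.18 without wild-type array 1 and 1.45 without wild-type array 2. The homozygotes and heterozygotes differed by 0.065 (SE 0.82, 95% interval -1.92 to 2.05).

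Igfbp4, a binding protein that mostly inhibits IGF action and is cleaved by the protease PAPP-A, had 11.94 and 10.75 in the homozygotes, 12.25 and 11.85 in the heterozygotes, and 9.07 and 11.20 in the wild type. Heterozygote array 1 was highest and wild-type array 1 lowest. The difference between heterozygotes and wild type was 1.91 (SE 0.73, limma unadjusted p = 0.037, adjusted p = 0.838), or 3.77-fold, and it was 0.85 without wild-type array 1. Against the other genotypes combined, all 6 Igfbp4 probe sets were higher in the homozygotes, by 0.12 to 0.34, each less than its SE. Against the heterozygotes alone, all 6 were lower in the homozygotes, with differences from -1.07 (SE 0.85) to -0.61 (SE 0.86). With the sex-linked covariate, the difference between homozygotes and the other genotypes was -1.56 for Igfbp2, -1.63 for Igfbp3 and -1.84 for Igfbp4. As for Igf1, these values rest on the slope set by the 2 wild-type arrays, which lie far apart for the 3 genes. That between heterozygotes and wild type was then 3.96, 3.65 and 3.74 for the same genes, with adjusted p-values of 0.154, 0.0908 and 0.0985 (limma).

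Igfbp5, a matrix-bound binding protein, had 11.07 and 7.89 in the homozygotes, 9.35 and 10.82 in the heterozygotes, and 8.47 and 9.69 in the wild type. The 2 homozygotes were the highest and the lowest of the 6 arrays and lay 3.18 log2 units apart, a gap that 0.114% of tested genes reached in that genotype. The difference between homozygotes and the other genotypes was -0.10 (SE 0.92), and it was 0.23 (SE 0.83) in the second probe set, which repeated the gap with 7.98 and 4.97.

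Igfbp6, a binding protein with a preference for IGF2, had 8.03 and 8.74 in the homozygotes, 7.35 and 8.19 in the heterozygotes, and 7.57 and 8.66 in the wild type, a difference of 0.44 (SE 0.42) between homozygotes and the other genotypes. The 3 genotypes overlapped, with heterozygote array 1 lowest and homozygote array 2 highest. Igfbp7, a relative that binds IGFs weakly, had 11.11 and 12.04 in the homozygotes, 11.58 and 11.61 in the heterozygotes, and 12.03 and 11.87 in the wild type. Both heterozygotes lay below both wild-type arrays, as for 18.4% of genes, and the homozygotes spanned the rest. Its difference between homozygotes and the other genotypes was -0.20 (SE 0.29) and -0.50 (SE 0.58) in 2 probe sets, and another probe set lay below the intensity filter and was not tested.

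**Figure D3:**
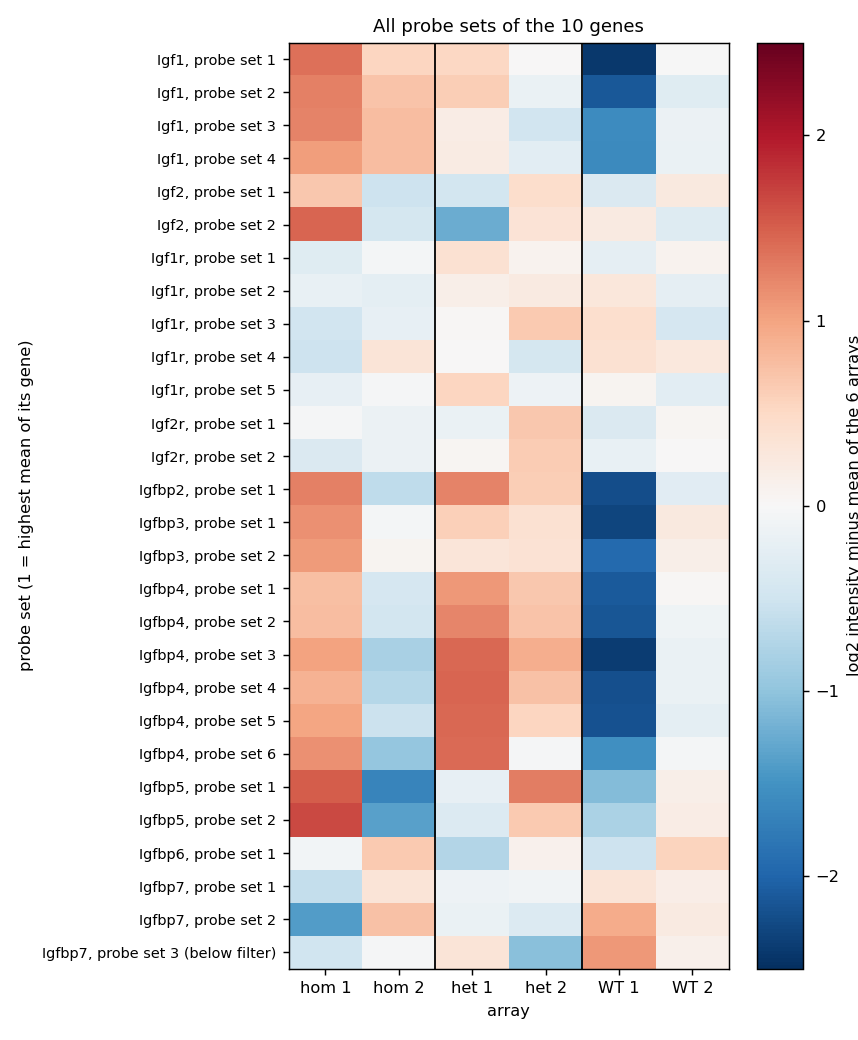
Log2 intensity minus the mean of the 6 arrays (colour, log2 units, red above and blue below the mean) for all 28 probe sets of the 10 genes, in rows, on the 6 arrays, in columns, ordered homozygote, heterozygote and wild type. The column of wild-type array 1 is blue for every probe set of Igf1, Igfbp2, Igfbp3, Igfbp4 and Igfbp5, and the 2 homozygote columns differ in sign for Igfbp2, Igfbp4 and Igfbp5.

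Between heterozygotes and wild type, 8 members were higher and 2 lower, with a median difference of 0.71, against 0.0011 for all genes, of which 50.2% were higher. Both heterozygote arrays lay above both wild-type arrays for 5 members, Igf1, Igf1r, Igfbp2, Igfbp3 and Igfbp4, where this held for 17.6% of all genes. This count is from the probe sets that stand for the genes. For Igf1, heterozygote array 2 and wild-type array 2 were at 9.46 and 9.44. For Igf1r, they were both at 9.40 to the digits given. Another Igf1 probe set kept the separation, but the rest did not, as with 7.79 and 8.13 on those arrays. No other Igf1r probe set repeated it. In 1 of them the order was reversed, with 5.77 and 5.32 in the heterozygotes and 6.15 and 6.03 in the wild type. The 2 members with an unadjusted p under 0.05 were Igfbp2 and Igfbp4, where 4.33% of genes had one. Of the 27 member probe sets, 6 had one, 5 of them of Igfbp4, or 22.2% against 5.26% of all probe sets. The 5 of Igfbp4 read 1 gene on the same arrays and are not independent, so this share counts that gene repeatedly. Left without wild-type array 1, the count of separated members was 5 again, but the share of all genes was then 30.1%.

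Against the wild type alone, 8 members were higher and 2 lower in the homozygotes, with a median difference of 0.34, against -0.018 for all genes, of which 47.5% were higher. Igf1 was the 1 member with both homozygotes above both wild-type arrays, where 12.5% of genes were, and no member had both below, where 14.3% of genes did. Against the heterozygotes, 4 members were higher and 6 lower, with a median of -0.19, against -0.014 for all genes, of which 47.1% were higher. Of the members, 1 lay above in both arrays (Igf1) and 1 below (Igf1r), where 10.5% of genes lay above and 12.4% below. No member, and none of the 27 member probe sets, had an unadjusted p under 0.05 there, against 1.94% of genes and 2.17% of probe sets. The 3 comparisons with the homozygotes share arrays and are not independent of each other.

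The range over the 6 arrays was above 2 log2 units in 5 of the 10 members, Igf1 and Igfbp2 to Igfbp5, where 5.69% of genes had such a range. Without wild-type array 1 this held for 1 member, Igfbp5, where 2.45% of genes did. Both counts are from the probe sets that stand for the genes. Some other Igfbp4 probe sets, but not all, kept such a range without wild-type array 1. In 1 of them the values ran from 9.81 in homozygote array 2 to 12.06 in heterozygote array 1. Wild-type array 1 was the lowest array for 5 members, Igf1, Igf2r, Igfbp2, Igfbp3 and Igfbp4, where 26.6% of genes were lowest there. Homozygote array 1 was the highest for 5 members, Igf1, Igf2, Igfbp2, Igfbp3 and Igfbp5, where 18% of genes were highest there. The wild-type arrays lay 2.40 apart for Igf1, 1.94 for Igfbp2, 2.54 for Igfbp3 and 2.13 for Igfbp4, where the median gap over all genes was 0.32. These gaps are from the probe sets that stand for the genes. For Igf1, Igfbp3 and Igfbp4 the gap was larger than the difference of means in any of the 4 comparisons. For Igfbp2 it was smaller than the 2.18 between heterozygotes and wild type. In all other Igf1 probe sets and most of those of Igfbp4, the gap was the smaller. An Igf1 probe set had 6.61 and 8.42 in the wild type, with 2.19 between homozygotes and wild type. An Igfbp4 probe set had 7.01 and 8.93 in the wild type, with 2.20 between heterozygotes and wild type.

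Other genes that act on the IGFs or their mRNAs showed no shared direction. The list held the proteases that cleave binding proteins, their inhibitors, the insulin receptor and the IGF2 mRNA-binding proteins, among others, and 11 of its 16 genes were tested. None was called in any of the 4 comparisons (limma). Between homozygotes and the other genotypes, 5 were higher and 6 lower, with a median of -0.094. Htra1, a secreted serine protease that can cleave binding proteins, had 9.76 and 10.22 in the homozygotes, 10.56 and 11.03 in the heterozygotes, and 10.27 and 10.81 in the wild type, and so lay below all other arrays in both homozygotes, as 3.61% of tested genes did. Its difference was -0.67 (SE 0.27, limma unadjusted p = 0.047, adjusted p = 1). The differences were -0.28 (SE 0.39) for Stc2, an inhibitor of PAPP-A, -0.22 (SE 0.24) for Pappa, which encodes PAPP-A, and -0.18 (SE 0.18) for Furin, a convertase that processes growth factor precursors.

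Of 29 genes that carry the signal from the receptor, from the insulin receptor substrates to mTOR and FOXO, 24 were tested, with 8 higher and 16 lower in the homozygotes, a median of -0.041 and none called in any comparison (limma). Grb14, an adaptor that inhibits receptor kinase activity, had 8.72 and 9.36 in the homozygotes, 9.45 and 9.62 in the heterozygotes, and 9.99 and 9.43 in the wild type. Both homozygotes were below the other 4, as for 3.61% of tested genes, and the difference was -0.58 (SE 0.28, limma unadjusted p = 0.078). The kinase subunit Pik3cb differed by -0.36 (SE 0.43), the transcription factor Foxo3 by -0.36 (SE 0.22) and the kinase subunit Pik3ca by 0.28 (SE 0.24). By array, the median level of these genes stayed between -0.042 and 0.021 of the mean of the 6 arrays.

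Igf2 belongs to a network of imprinted genes that act on fetal growth, and 10 of 16 such genes were tested, among them Grb10, which is also on the signalling list. In the homozygotes 9 were higher and 1 lower than in the mean of the other genotypes, where 47.4% of all genes were higher. The median was 0.22, and none was called in any comparison (limma). Against the heterozygotes alone 4 were higher and 6 lower, with a median of -0.043. Against the wild type alone 9 were higher and 1 lower, with a median of 0.51. Cdkn1c, an inhibitor of cyclin-dependent kinases, had 9.45 and 9.11 in the homozygotes, 8.12 and 8.45 in the heterozygotes, and 8.37 and 9.09 in the wild type. Both homozygotes lay above the other 4, as for 3.16% of tested genes, but the margin over wild-type array 2 was small. The Cdkn1c difference was 0.78 (SE 0.27, limma unadjusted p = 0.028, adjusted p = 1). Mest differed by 0.95 (SE 0.89), the Notch-related ligand gene Dlk1 by 0.51 (SE 0.76) and the zinc finger gene Plagl1 by 0.35 (SE 0.41). Mest had 12.11 and 9.73 in the homozygotes, 11.44 and 11.10 in the heterozygotes, and 7.36 and 9.98 in the wild type, and like Igfbp2 and Igfbp4 it was lowest in wild-type array 1, with the homozygotes apart.

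The median macrophage marker, like Igf1, was higher in the homozygotes. Of 19 macrophage markers, 16 were tested, and none was called (limma). All 16 were higher in the homozygotes than in the mean of the other genotypes, where 47.4% of all genes were. The median difference was 1.25. An unadjusted p under 0.05 was found for 9, where 2.19% of genes had one. The markers were read on the same arrays and are not independent. Cx3cr1, Aif1 and Itgam lay below the intensity filter. The summed intensity of the 19 was 19055 and 8695 in the homozygotes, 6493 and 5790 in the heterozygotes, and 3522 and 8439 in the wild type. Macrophages are a known source of IGF1. As for Igf1, homozygote array 1 was highest and wild-type array 1 lowest in this sum. Wild-type array 2 lay above both heterozygotes in the sum. In the probe set that stands for Igf1 it lay just below heterozygote array 2, at 9.44 against 9.46. In another Igf1 probe set it was also lower, at 8.42 against 8.55. In the rest it lay above heterozygote array 2, as at 8.13 against 7.79. Between heterozygotes and wild type, 8 macrophage markers were higher and 8 lower, with a median of 0.0095, where Igf1 differed by 1.47. The macrophage genes with the largest differences were Mrc1 at 1.71 (SE 0.70), Tyrobp at 1.46 (SE 0.54), Cd68 at 1.33 (SE 0.48) and Ptprc at 1.33 (SE 0.48). The homozygotes overlapped with the other arrays for Mrc1 and Cd68, and lay above them for Tyrobp and Ptprc. The part of these markers in the Igf1 difference was not tested.

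All 14 markers of the labelled cell type, fibroblasts, passed the intensity filter and were tested, with 8 higher and 6 lower in the homozygotes, a median of 0.075 and none called in any comparison (limma). Their summed intensity was 86668 and 76468 in the homozygotes, 83324 and 84615 in the heterozygotes, and 60494 and 74532 in the wild type, lowest in wild-type array 1. The largest differences were those of the matrix proteoglycans Lum, 1.50 (SE 0.87), and Dcn, 1.50 (SE 0.47), the receptor gene Pdgfra, 1.01 (SE 0.69), and the collagen gene Col3a1, 0.30 (SE 0.41). Relative to the mean of the 6 arrays, the median of the fibroblast markers was 0.14 and -0.047 in the homozygotes, 0.18 and 0.25 in the heterozygotes, and -0.67 and -0.057 in the wild type. The median of the 10 IGF genes was 0.72 and -0.10, 0.13 and 0.40, and -0.80 and 0.12 in the same order of genotypes, so both lists were lowest in wild-type array 1. Whether the share of fibroblasts had a part in the IGF values was not tested.

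**Figure D4:**
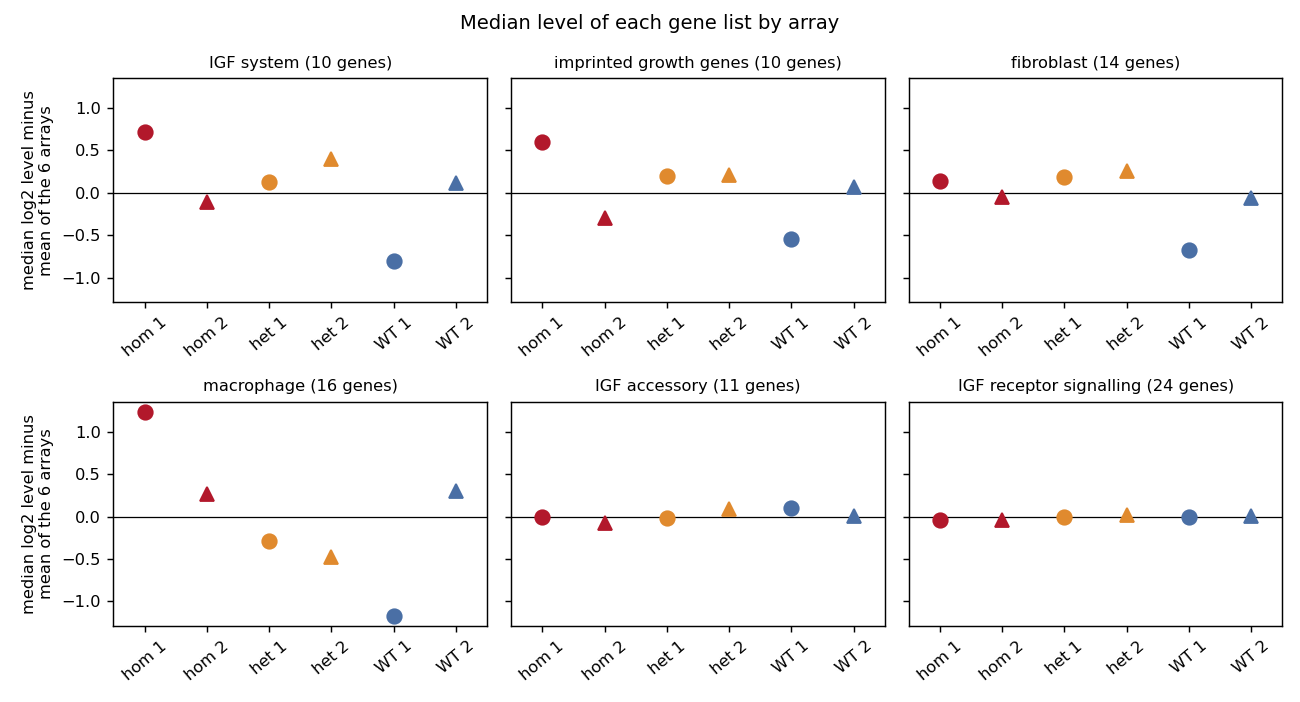
Median log2 level of 6 gene lists on each array, relative to the mean of the 6 arrays (y axis, log2 units), with the homozygotes (hom) at the left, then the heterozygotes (het) and the wild type (WT). The IGF system, imprinted, fibroblast and macrophage lists are lowest in wild-type array 1, at -0.80, -0.54, -0.67 and -1.17, while the accessory and receptor signalling lists stay between -0.080 and 0.10.

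Neural and glial markers lay the other way. Of 6 neural and glial markers tested, all 6 were lower in the homozygotes than in the mean of the other genotypes, where 47.4% of all genes were higher. The median was -0.72, and none was called (limma). The difference of Stmn2, a neuronal microtubule regulator, was -2.34 (SE 0.25, limma adjusted p = 0.702). Sox10, whose mean of 4.75 was close to the intensity filter, differed by -1.61 (SE 0.61), Erbb3 by -0.88 (SE 0.44) and Map2 by -0.55 (SE 0.44). Against the wild type alone, 1 marker was higher and 5 lower in the homozygotes, with Map2 higher by 0.69. Against the heterozygotes alone, 2 were higher and 4 lower, with Tubb3 higher by 0.18 and Gap43 by 0.017. The summed intensity of these markers was 681 and 628 in the homozygotes, 1725 and 2351 in the heterozygotes, and 2326 and 2025 in the wild type, most of it from Stmn2. Without Stmn2, the other 5 summed to 331 and 360 in the homozygotes, 556 and 603 in the heterozygotes, and 520 and 426 in the wild type. Below the intensity filter lay 6 of 7 liver markers, all 5 erythroid, 5 of 8 endothelial, 3 of 6 epithelial and 7 of 10 skeletal muscle markers. Over the 6 arrays, the sums ran from 57 to 89 for the liver list, 9 to 55 for the erythroid, 106 to 213 for the endothelial, 118 to 219 for the epithelial and 83 to 204 for the skeletal muscle list. Among them the tested genes differed by -0.18 (SE 0.21) for Apoa2, 0.40 (SE 0.41) for Kdr, 0.26 (SE 0.60) for Tek, -0.17 (SE 0.58) for Emcn, -0.41 (SE 0.25) for Epcam, -0.40 (SE 0.47) for Krt18, 0.13 (SE 0.29) for Krt8, 0.57 (SE 0.35) for Tnnt2, 0.54 (SE 0.52) for Des and 0.23 (SE 0.36) for Actc1.

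Proliferation was read through 11 genes, all of which were higher in the homozygotes than in the mean of the other genotypes, where 47.4% of all genes were. The median was 0.28, and none was called (limma). Against the wild type alone all 11 were higher, with a median of 0.41. Against the heterozygotes alone 9 were higher and 2 lower, with a median of 0.15. The largest differences were those of Mki67, 0.40 (SE 0.48), Ccnb2, 0.34 (SE 0.33), the replication clamp gene Pcna, 0.34 (SE 0.30), and Aurkb, 0.33 (SE 0.26). By array, the median of these genes relative to the mean of the 6 was 0.63 and -0.28 in the homozygotes, -0.085 and 0.071 in the heterozygotes, and -0.036 and -0.29 in the wild type. The homozygotes were again split, with array 1 highest and array 2 close to the lowest.

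Of 11020 other tested genes, those whose levels followed Igf1 most closely over the 6 arrays were Mpc1 (Pearson r = 0.995), Cyp7b1 (0.993), Timm21 (0.992), Mab21l1 (0.988) and Osr2 (0.988). Without wild-type array 1 and homozygote array 1, the 2 arrays farthest from the median of Igf1, r was 0.86, 0.91, 0.93, 0.58 and 0.62 in the same order of genes. The likeness of Mab21l1 and Osr2 to Igf1 therefore rested largely on those arrays. The genes most like Igf2 were Peg3 (0.988), Usp22 (0.984), Nrp (0.978), Btg1 (0.977) and Grb10 (0.975), and without homozygote array 1 and heterozygote array 2 r was 1.00, 0.97, 0.97, 0.98 and 0.94. The points share their arrays, each r is the highest out of the genes searched, and no p is given.

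**Figure D5:**
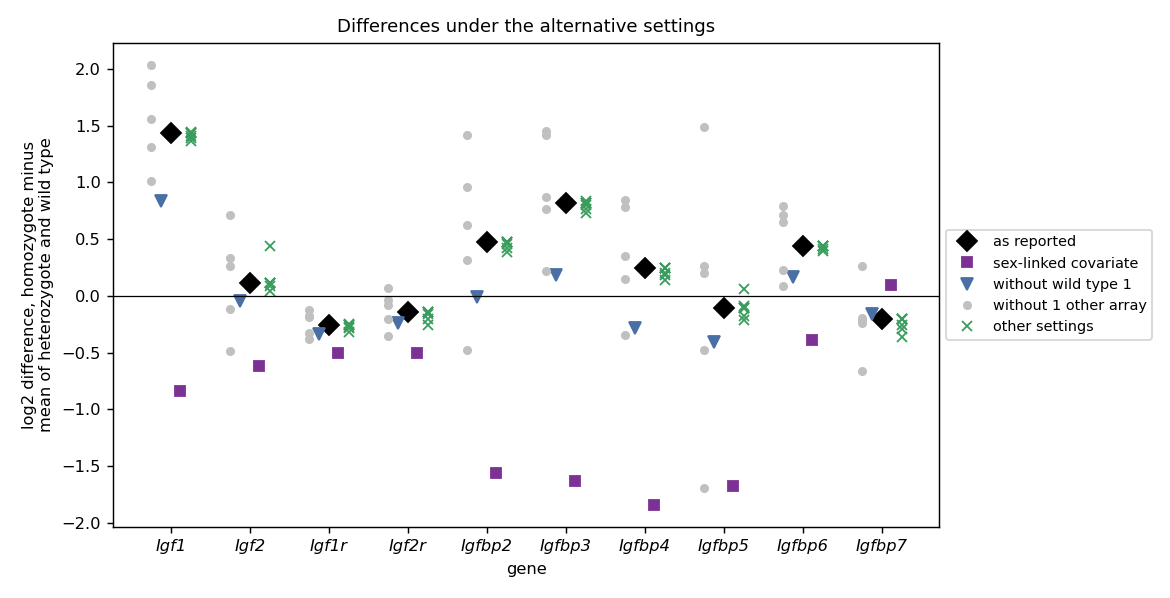
Log2 difference between the homozygotes and the mean of heterozygotes and wild type (y axis, log2 units) for the 10 genes, as reported (black diamonds) and under 14 other settings: with a sex-linked covariate (purple squares), without wild-type array 1 (blue triangles), without 1 other array (grey circles) and the remaining settings (green crosses). Igf1 lies above 0 in all but the sex-linked covariate, at -0.84, and Igfbp5 runs between -1.69 and 1.49 as 1 array is left out.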

How the data were processed

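Total RNA of 6 fibroblast cultures was hybridised as biotinylated cRNA, 2 µg each, to Affymetrix mouse arrays, per the labels' protocols. The values are the linear probe set intensities that the authors deposited, 45101 per array. Their medians lay between 21.9 and 27.3, and the summary and scaling of probes are not stated in the labels. Intensities were converted to log2(intensity + 1.78) from the deposited values. Array medians spanned 0.29 log2 units, above a limit of 0.1, so arrays were quantile normalised, which removes any shift common to all genes. The 64 control probe sets were left out and the upper 50% of the other 45037 by mean level were tested (22519, mean log2 of at least 4.57). Symbols came from the platform annotation, updated through Entrez identifiers to GRCm38.p6. A single symbol was given for 34945 probe sets, several for 932 and none for 9160. Of 18193 named genes, 11373 were tested.

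Limma 3.58.1 in R 4.3.3 fitted a mean for each genotype to all 6 arrays, with 3 residual and 3.28 prior degrees of freedom and a Benjamini-Hochberg threshold of 0.05. The script was tested on simulated data. Arrays were grouped by the genotype in their titles or strain labels. The median absolute gap between the 2 arrays was 0.32 in the homozygotes, 0.28 in the heterozygotes and 0.34 in the wild type, so none was a copy, and p-values rest on the spread between 2 embryos. The labels do not pair the embryos by replicate number and name no shared batch or litter. The genes named were all 10 members with every probe set, the 5 genes most like each ligand by Pearson r, up to 4 genes from each list with the largest absolute difference in the homozygote comparison, and Bcar1. The members and lists were chosen with earlier results of these data known. Alternatives were other normalisations, a pseudocount of 16, no filter, probe sets averaged per gene, a variance trend, a sex-linked covariate (the mean of Eif2s3y, Uty and Kdm5d minus Xist), a replicate block and leaving out each array. The counts of separated members without each array were added after seeing the data.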

Additional observations from a re-analysis of the deposited data

How the results depend on the processing

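No member passed the threshold under any of 14 alternatives, with a smallest adjusted p of 0.0887 (Igf1 in heterozygotes against wild type, with the sex-linked covariate). Of 560 recomputed differences, 499 kept their direction and 61 did not. The sex-linked covariate rests on the 2 wild-type arrays, and in homozygotes against heterozygotes sex and genotype cannot be told apart. With it, the difference between homozygotes and the other genotypes was -0.84 for Igf1, -0.61 for Igf2, -1.56 for Igfbp2, -1.63 for Igfbp3, -1.84 for Igfbp4, -0.39 for Igfbp6 and 0.10 for Igfbp7. Under it, homozygotes against wild type gave -0.27 for Igf2, -0.14 for Igf2r, -0.49 for Igfbp5 and -0.20 for Igfbp6, homozygotes against heterozygotes gave -2.57 for Igf1, -0.95 for Igf2, -3.46 for Igfbp3, -0.58 for Igfbp6 and 0.40 for Igfbp7, and heterozygotes against wild type gave 0.39 for Igfbp6 and 1 probe set called of all tested. Without quantile normalisation, Igfbp3 was -0.065 in homozygotes against heterozygotes and Igf2 -0.060 in heterozygotes against wild type. With median scaling, Igf2 was -0.024 in homozygotes against wild type and -0.22 in heterozygotes against wild type, and Igfbp7 was 0.039 in homozygotes against heterozygotes. With averaged probe sets, Igfbp5 was 0.062 against the other genotypes, Igf2r -0.048 in homozygotes against wild type and Igf2 -0.17 in heterozygotes against wild type. The cause was not tested for any of these.

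Leaving out 1 array at a time gave, between homozygotes and the other genotypes, 0.83 to 2.04 for Igf1, 0.18 to 1.45 for Igfbp3, 0.088 to 0.80 for Igfbp6, -0.48 to 0.71 for Igf2, -0.35 to 0.067 for Igf2r, -0.47 to 1.42 for Igfbp2, -0.34 to 0.84 for Igfbp4, -1.69 to 1.49 for Igfbp5 and -0.66 to 0.26 for Igfbp7. Against wild type it gave -0.46 to 0.73 for Igf2, -0.26 to 0.057 for Igf1r, -0.14 to 0.27 for Igf2r, -1.19 to 1.99 for Igfbp5, -0.27 to 0.82 for Igfbp6 and -0.84 to 0.088 for Igfbp7. Against heterozygotes it gave -0.51 to 0.69 for Igf2, -0.77 to 0.068 for Igf2r, -1.56 to 0.33 for Igfbp2, -0.54 to 0.66 for Igfbp3, -2.19 to 0.99 for Igfbp5 and -0.49 to 0.44 for Igfbp7. Between heterozygotes and wild type it gave -0.40 to 0.49 for Igf2, -0.0015 to 0.83 for Igf2r and -0.88 to 0.20 for Igfbp6. A group left with 1 array is assumed to vary like the others. Over these fits 0 to 2 of all probe sets were called in homozygotes against the other genotypes and against heterozygotes, and 0 to 1 in heterozygotes against wild type. The members with both heterozygotes above the wild type were 5 to 8 (8 without heterozygote array 1, where 30.5% of genes did the same), and those below 1 to 3 (3 without heterozygote array 2, against 33.9%). Those with the homozygotes above all others were 1 to 5 (5 without homozygote array 2, against 19% of genes, and 3 without homozygote array 1, against 12.9%), and those with a range above 2 log2 units 1 to 5 (1 without wild-type array 1, against 2.45%). With the replicate number as a block, 0 members and 0 probe sets were called in all 4 comparisons. The labels give no pairing of the arrays by these numbers. The difference of array 1 and array 2 correlated between genotypes with r of -0.14 to -0.36. These values cannot exclude a shared litter or processing day.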

Other observations

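The 2 embryos of a genotype differed widely for several binding proteins, by far more than most genes on the same arrays. Igfbp5 was 3.18 log2 units higher in homozygote array 1 than in array 2, and 1.48 lower in heterozygote array 1 than in array 2, gaps reached by 0.114% and 1.21% of tested genes. Igfbp2 was 1.89 higher in homozygote array 1 than in array 2, which 1.07% of genes reached. Igf1r, whose receptor binds both ligands, had gaps of 0.25, 0.28 and 0.32 in the homozygotes, heterozygotes and wild type, close to the medians of all genes, 0.32, 0.27 and 0.32.

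Peg3 and Grb10, 2 imprinted genes on the list of fetal growth regulators, were among the 5 genes that followed Igf2 most closely over the 6 arrays. They differed by 0.033 (SE 0.32) and 0.017 (SE 0.20) between the homozygotes and the other genotypes, against 0.11 for Igf2.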
